A study of Mus musculus with 8 samples.

Results

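The epithelial cells of the cochlea were compared with the epithelial cells of the vestibular organs in newborn mice, using 2 of the 8 mRNA-seq libraries of the series, 1 per organ. Both came from dissociated inner ears of ICR mice at postnatal day 0, sorted on CD326, CD49f and CD34, and the same sort gave mesenchyme, neurons and vascular endothelium of each organ. No treatment, genotype or sex was given for any group, and neither was the number of mice behind a library. The labels name the epithelial libraries both epithelial and sensory, and the study's account places sorted cells once at postnatal day 0 and once at postnatal day 2. With 1 library per group there was no replicate, so differences between the 2 epithelial libraries are described by size and carry no test.

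Both epithelia grow out of the otocyst, the dorsal part of which forms the semicircular canals and the ventral part of which forms the cochlear duct. In the cochlear duct, hair cells and supporting cells of the organ of Corti lie under the tectorial membrane and respond to sound. In the utricle and saccule, hair cells lie under an otolithic membrane loaded with calcium carbonate crystals called otoconia, and in the canals they project into a gelatinous cupula. Non-sensory epithelium of both organs controls the ions of the endolymph, the fluid above the hair cells.

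Epithelial markers were present in both libraries. The deposited value of a gene is a normalized signal without a unit, with 20 as the lowest value and the same distribution in every library, so that values are compared between libraries and not between genes. Epcam, which encodes the sorting antigen CD326, was 14252.5 in cochlear and 21677.8 in vestibular epithelium, against 43.6 to 987.1 in the other 6 libraries. Oc90, the main matrix protein of otoconia, was 61524 and 147260, and Tecta, a protein of the tectorial membrane, was 109100 and 41508.5. Itga6, which encodes CD49f, was 4308.4 and 3515.5, and Cd34 was 68 and 190.5. The depth of the libraries is unknown. In bulk RNA of this kind, fewer cells of a type and less RNA per cell cannot be told apart.

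Of 15275 genes, 11412 had a value of at least 100 in 1 or both epithelial libraries and were compared. Most differed little, with 10143 genes (88.9%) less than 2-fold apart and a Spearman correlation of 0.960 over all genes. Past 4-fold, 112 genes were higher in the cochlea, which is 0.981% of the genes compared, and 279 were higher in the vestibule, which is 2.44%. Of these 391 genes, 62 stood at the lowest value in the other organ (15 and 47 in that order), and for them the fold is a lower bound. A compared gene at the lowest value is at least 5-fold apart by construction. With both values at least 100, 48 genes were higher in the cochlea and 120 in the vestibule. At the 4-fold limit, Greb1l was just inside on the vestibular side with 104.8 and 419.9. On the cochlear side, Aox3l1 was inside with 164.4 and 40.9 and Ccdc148 outside with 1850.4 and 473.9. The excess on the vestibular side was present at each level. Of 2574 genes with a higher value of 100 to 300, 93 were past 4-fold towards the vestibule and 41 towards the cochlea, and of 178 genes with a higher value of at least 10000 it was 9 and 6.

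**Figure D1:**
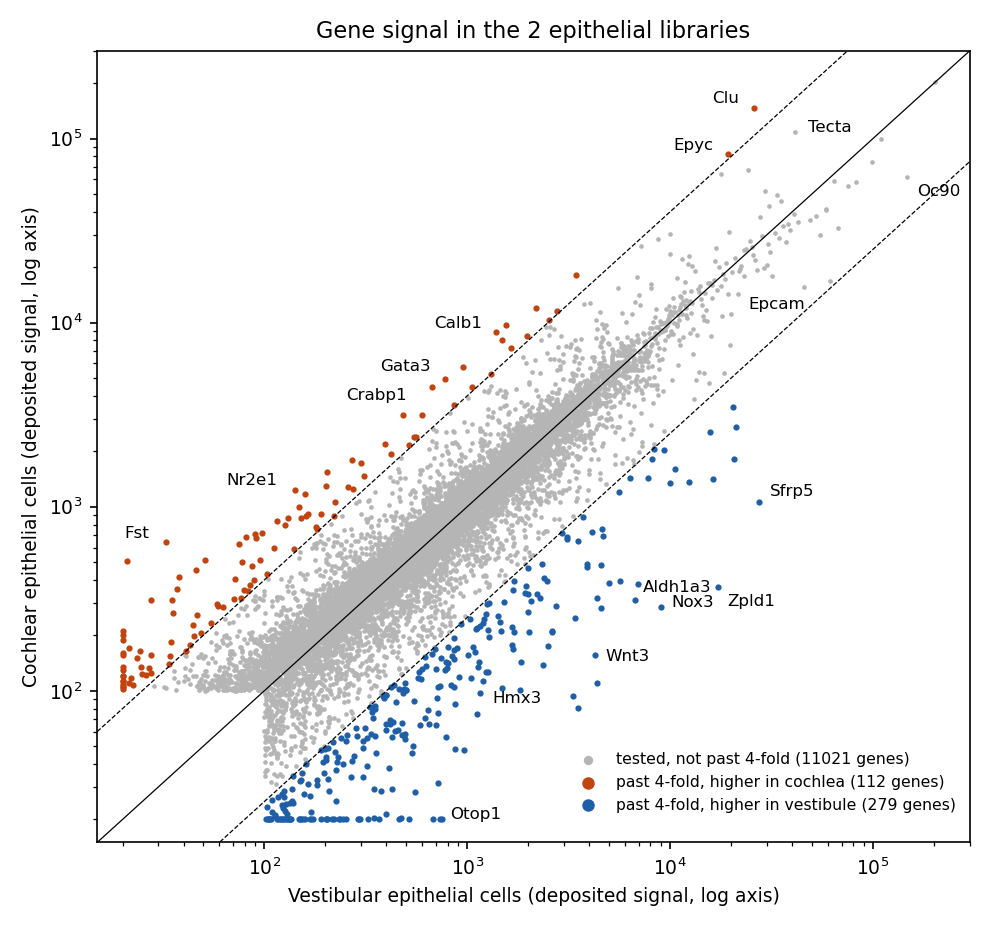
Signal of each compared gene in vestibular (x axis) and cochlear (y axis) epithelial cells, on log axes without a unit; each point is 1 gene, the solid line marks equal values and the dashed lines a 4-fold difference. The 279 genes below the lower dashed line outnumber the 112 above the upper one, and points along the left and lower edges lie at the lowest value of 20.

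Some genes of otoconia and of the cupula were among those with the largest vestibular ratios. Zpld1, which encodes a zona pellucida domain protein and whose fish counterpart is a component of the cupula, was 366.8 in the cochlea and 17309 in the vestibule, 47.2-fold higher and the largest ratio among genes with a higher value of at least 1000. Nox3, the NADPH oxidase required for otoconia to form, was 286.1 and 9050.3, or 31.6-fold higher. Otop1, a proton channel also required for otoconia, was at the lowest value in the cochlea and at 734.1 in the vestibule, at least 36.7-fold higher. Otol1, a collagen-like otoconial protein, was 2021.8 and 9293.5. These 4 were past 4-fold among the 13 compared members of the otoconia and cupula list, and none was past 4-fold towards the cochlea. Over all compared genes the shares were 2.44% towards the vestibule and 0.981% towards the cochlea. The median log2 ratio of cochlea over vestibule was -1.04 against 0.07 over all compared genes, and 6 members were within 2-fold. Otog, which encodes otogelin of all these acellular membranes, was 16808.4 and 61524, and its relative Otogl went the other way, with 7855.9 and 4547.1. Zpld1 lies on chromosome 16 at 55225175-55297986 and Nox3 on chromosome 17 at 3635240-3696261 (GRCm38).

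Transcription factors of the dorsal otocyst were higher in the vestibular library as a group. Of 13 compared members, 9 were past 4-fold towards the vestibule and 0 towards the cochlea, with a median log2 ratio of -3.35. Over all compared genes those shares were 2.44% and 0.981%. Hmx3 and Hmx2, homeobox factors required for vestibular development, were 97.6 and 1156.6, and 56.1 and 785.8. Dlx5, required for the semicircular canals, was at the lowest value in the cochlea and at 369.4 in the vestibule. Its homeobox relatives Dlx1, Dlx2 and Dlx6 were likewise at the lowest value in the cochlea and at 323, 296.8 and 204.4 in the vestibule, and Dlx3 was 79 and 641.3. For these 4 genes with a cochlear value of 20 the fold is a bound. Meis2, a homeobox factor, was 209.5 and 2617.6, and Tbx1, a T-box factor needed for inner ear patterning, was 209.1 and 1701.6. Lmx1a and Otx1 were less than 2-fold apart. With both values at least 100 the median of the list was -1.87.

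Among ventral otocyst factors the cochlear library held the higher value for most, as it did over all compared genes (6564 of 11412). Of 18 compared members, 12 were higher in the cochlea, of which 2 were past 4-fold, and 1 was past 4-fold the other way. The median log2 ratio was 0.71, and past 4-fold over all compared genes were 0.981% towards the cochlea and 2.44% towards the vestibule. Gata3, a zinc finger factor required for the cochlear duct, was 4940.1 and 772.9, or 6.39-fold higher in the cochlea. Lin28b, an RNA-binding protein of early development placed in the list with these factors, was 102.3 in the cochlea and at the lowest value in the vestibule. Tbx3, a T-box factor, was 479.4 and 4581.6. The orphan nuclear receptor genes Nr2f1 and Nr2f2 were 8045.1 and 2304.6, and 1382.9 and 429, under 4-fold. The iroquois genes Irx3 and Irx5 were 4293.9 and 1285.8, and 2557.4 and 783.8, again under 4-fold and higher in the cochlea.

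Genes of the cochlear duct floor included some of the larger cochlear ratios, while the list as a whole was divided. Of its 30 compared members, 17 were higher in the cochlea and 13 in the vestibule, beside 6564 and 4837 of all 11412 compared genes. Past 4-fold were 7 towards the cochlea and 0 towards the vestibule, against 0.981% and 2.44% of all compared genes. The median log2 ratio was 0.66. Calb1, the calcium buffer calbindin, was 8929.1 and 1390.4, or 6.42-fold higher. Fst, which encodes the activin inhibitor follistatin, was 639.4 and 32.6, a 19.6-fold difference and the largest of the list. Hmga2, a chromatin protein of growing tissue, was 511.9 and 51.1. Epyc, which encodes the proteoglycan epiphycan, was 82226.3 and 19190.1, and Bmp4 was 1251.9 and 272.3. Crabp1 is described with the retinoic acid genes and Lin28b above. Gjb2, the connexin 26 gene, and Fgfr3 were 9512.3 and 2565, and 1050.9 and 283.6, just under 4-fold. On the vestibular side, S100a1, a calcium-binding protein, was 2244.1 and 7299.3, and Sox2, a factor of prosensory cells, was 1438.6 and 2679.8. The Notch pathway genes Lfng and Hes1 were 509.9 and 1645.8, and 450.8 and 1045.4.

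By size of ratio among genes with a higher value of at least 1000, the cochlear side began with Nr2e1, an orphan nuclear receptor, at 1237.8 against 141.3. This was 8.76-fold, while the 15 leading vestibular genes ranged from 14.3-fold to 47.2-fold. Spink5, a serine protease inhibitor, followed with 1541 and 202.5, and Pla2r1, a phospholipase receptor, with 1166.6 and 159. Itgb6, the beta 6 integrin subunit, was 1001.8 and 148.3. Clu, which encodes the secreted chaperone clusterin, was 147260 in the cochlea and 25882.3 in the vestibule, 5.69-fold apart. Among the others of the first 15 were Pcolce2, Gucy1b3, Scara3, Pappa2, Sh3bgrl2, Crabp1, Crabp2, Calb1 and Gata3, between 5.58-fold and 6.67-fold. With both values at least 100, Stmn2, a microtubule regulator of growing neurites, at 837.8 and 114.9, and the serpin gene Serpinb5, at 872.9 and 130.6, joined the first 10.

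Of the other leading vestibular genes, Nos2, the inducible nitric oxide synthase, was 110.1 in the cochlea and 4380.5 in the vestibule. Hhla1 was 80.4 and 3519.9, and Tnfaip2 was 94.1 and 3334.9. Sod3, the extracellular superoxide dismutase, was 380.6 and 6947.1, and Vnn1, a pantetheinase, was 138.6 and 2354.8. Mybpc1, a myosin-binding protein, was 280.4 and 4557.4, and Pkp1, a plakophilin of desmosomes, was 103.3 and 1480.9. Slco2a1, a prostaglandin transporter, was 175.9 and 2511.4. Gm266 and Anks1b were 18.1-fold and 14.8-fold higher in the vestibule. None of the 15 leading genes on either side was at the lowest value in the other organ.

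**Figure D2:**
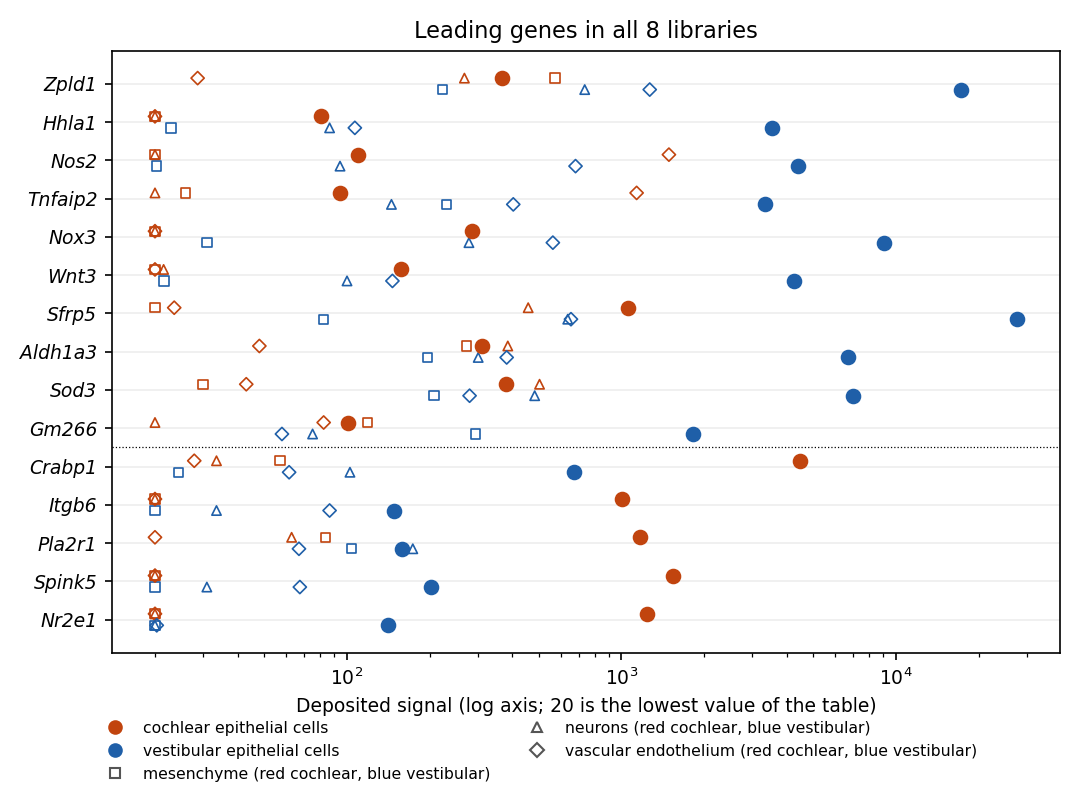
Signal (x axis, log scale without a unit) of the 10 leading vestibular genes (above the dotted line) and the 5 leading cochlear genes (below it), with filled circles for the 2 epithelial libraries and open symbols for the other 6. Zpld1 reaches 17309 in vestibular epithelium and at most 1267.5 in the 6 other cell type libraries, and Nr2e1 is at 1237.8 in cochlear epithelium and at most 20.3 in those 6.

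The tectorial membrane list did not separate the organs. Of 12 compared members 0 were past 4-fold in either direction, and the median log2 ratio was -0.03. Tecta was 2.63-fold higher in the cochlea and Tectb, which encodes beta-tectorin, was 20851.8 and 12230.3. Col9a1, a collagen IX chain, was 32734.5 and 67384.5. Col2a1 held the top rank in both libraries, where the normalization gives both the value 203006 and a ratio of 1 by construction.

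Hair cell genes were on the vestibular side for most members, mostly under 2-fold. Of 45 compared members, 31 were within 2-fold, 13 were more than 2-fold higher in the vestibule and 1 in the cochlea, with a median log2 ratio of -0.71. Over all 11412 compared genes, 785 were more than 2-fold higher in the vestibule and 483 in the cochlea. Past 4-fold it was 2.44% towards the vestibule and 0.981% towards the cochlea. Pou4f3, a transcription factor needed for hair cell survival, was 811.1 and 1933.6, and Otof, the otoferlin gene of the hair cell synapse, was 2774.4 and 8027.5. Past 4-fold towards the vestibule were Cib3, a calcium-binding protein of the transduction complex, at the lowest value against 129.9, Whrn, the whirlin gene of the hair bundle, at 233.5 and 1192.4, and Spp1, the osteopontin gene, at 409 and 2401.3. Myo7a, the unconventional myosin of the bundle, was 1252.3 and 1844.6, and Myo3a was the member more than 2-fold higher in the cochlea, with 162 and 77.4.

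Genes of the motile cilium were also on the vestibular side. Motile cilia beat with dynein arms, and hair cells carry a related structure, the kinocilium. Of 29 compared members, 7 were past 4-fold and 18 past 2-fold towards the vestibule, 0 were past 2-fold towards the cochlea, and the median log2 ratio was -1.30. Past 2-fold over all 11412 compared genes were 785 towards the vestibule and 483 towards the cochlea, and past 4-fold 2.44% and 0.981%. Dnahc5, an outer arm dynein heavy chain, was at the lowest value in the cochlea and at 514.4 in the vestibule. Hydin, of the central pair of microtubules, was 85.1 and 869.3. The dynein heavy chain genes Dnahc9, Dnahc10 and Dnahc11 were 56.9 and 352.6, 25.3 and 225.8, and 215 and 1259.5. Foxj1, the factor that switches on motile cilium genes, was 494.3 and 1218.4, while Rfx3, a related regulator, was 995 and 900.6.

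**Figure D3:**
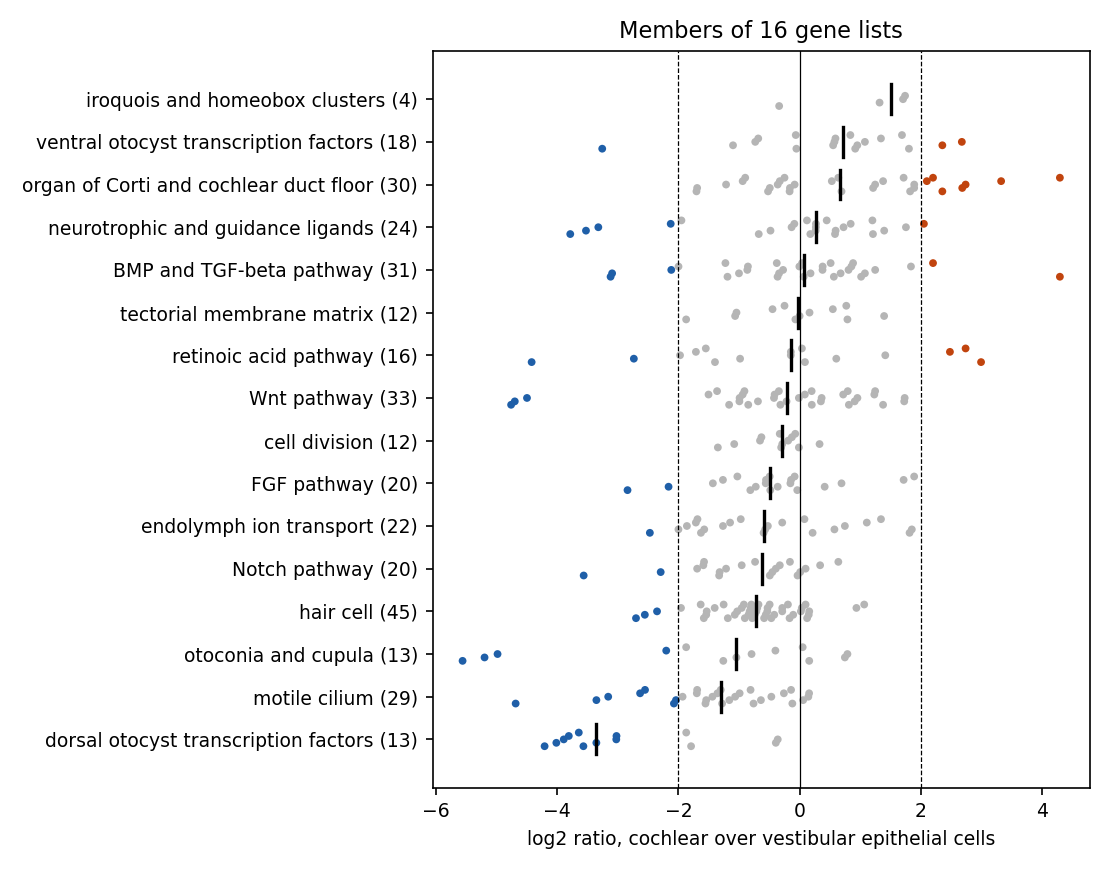
Log2 ratio of cochlear over vestibular epithelial signal (x axis) for the compared members of 16 gene lists, with the number compared in parentheses; each point is a gene, the black bar the median of the list, and the dashed lines a 4-fold difference. Medians run from -3.35 for dorsal otocyst transcription factors to 1.51 for iroquois and homeobox clusters, which has 4 compared members.

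Secreted signals and their inhibitors differed between the epithelia in both directions. The shares past 4-fold over all compared genes, 0.981% towards the cochlea and 2.44% towards the vestibule, stand beside the counts of each list. In the Wnt pathway, a few members carried very large vestibular ratios in a list that was centred near equality, with 3 of 33 compared members past 4-fold towards the vestibule, 0 towards the cochlea and a median log2 ratio of -0.22. Wnt3, a ligand, was 157.1 and 4256, and Wnt6, another ligand, was 31.6 and 713.9. Sfrp5, a secreted Wnt inhibitor, was 1058.8 and 27502.9, or 26.0-fold higher. On the cochlear side, under 4-fold, were the ligands Wnt9a with 1092.5 and 328.6 and Wnt5a with 7649.9 and 3256, the R-spondin gene Rspo2 with 4188.9 and 1266.5, and its receptor gene Lgr5 with 1646.4 and 633.9. Axin2, a widely used target of the canonical pathway, was 853.1 and 1373.9.

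In the BMP and TGF-beta pathway, opposite members stood at the 2 ends. Of 31 compared members, 2 were past 4-fold towards the cochlea (Fst and Bmp4, given above) and 3 towards the vestibule, with a median log2 ratio of 0.07. Bmp2, a ligand, was 58 and 495, and Grem1, a secreted BMP inhibitor, was 71.3 and 619.3. Tgfbr3, a co-receptor, was 393.1 and 1705.5. Tgfb2, a ligand, was 23710.8 and 9993.4. The targets Id1 and Id3 were within 2-fold, at 3372.1 and 3218.6, and 3163.9 and 3172.8.

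Of 20 compared FGF pathway genes, 2 were past 4-fold, both towards the vestibule, against 2.44% of all compared genes. They were Fgf3, a ligand with a part in otocyst patterning, at 66.6 and 476.6, and Spry4, an inhibitor of the pathway, at 62.9 and 281.5. Fgf8, the ligand of inner hair cells, was 117.6 and 35.8, and its receptor gene Fgfr3 was 3.71-fold higher in the cochlea. Of 20 compared Notch pathway genes, again 2 were past 4-fold, both towards the vestibule. Dll1, a ligand, was 151.6 and 742.4, and Dlk1, a non-canonical ligand, was at the lowest value and at 236.3. Notch1 was 8979.4 and 9194.6. The medians of the FGF and Notch lists were -0.49 and -0.61.

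Genes of retinoic acid metabolism split by role. Retinaldehyde dehydrogenases make retinoic acid from retinal, CRABP proteins bind it in the cytoplasm, CYP26 enzymes degrade it, and RAR and RXR receptors bind DNA as pairs. The 3 dehydrogenase genes were higher in the vestibule, with Aldh1a3 at 311.8 and 6679.5, Aldh1a1 at 1596.6 and 10628.1 and Aldh1a2 at 591.8 and 1937.4, of which the first 2 were past 4-fold. Rdh10, which makes the retinal, was 490 and 1923.6. The binding protein genes went the other way, with Crabp1 at 4464.4 and 669 and Crabp2 at 2191.1 and 392.8, and so did Cyp26b1 at 4156.4 and 1560.6. The receptor gene Rxrg was 713.5 and 89.6, while Rara, Rarg and Rxra were within 2-fold. Over the 16 compared members of the list 3 were past 4-fold towards the cochlea and 2 towards the vestibule. The shares over all compared genes were 0.981% and 2.44%, and the median log2 ratio of the list was -0.15.

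Rarb, a receptor gene whose own promoter responds to retinoic acid, was 112.4 in the cochlea and 328.6 in the vestibule, 2.92-fold apart. Its RefSeq promoter (GRCm38.p6, chr14:16575427-16575726, minus strand, 250 bases before and 50 after the start site) is shown for its retinoic acid response element. This is a direct repeat with a spacer of 5 bases. In capitals is the match to GGTTCANNNNNAGTTCA, searched on both strands, which lies from -53 to -37 relative to the start site. The promoters of the leading gene on each side, Zpld1 (chr16:55283188-55283487, minus strand) and Nr2e1 (chr10:42583541-42583840, minus strand), are given for comparison and hold no match in these windows.
Rarb: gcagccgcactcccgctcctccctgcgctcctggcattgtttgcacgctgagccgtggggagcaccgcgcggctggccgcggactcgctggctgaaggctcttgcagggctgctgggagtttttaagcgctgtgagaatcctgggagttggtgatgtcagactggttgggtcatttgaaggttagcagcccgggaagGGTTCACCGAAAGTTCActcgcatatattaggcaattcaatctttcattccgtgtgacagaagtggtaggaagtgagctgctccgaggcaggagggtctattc
Zpld1: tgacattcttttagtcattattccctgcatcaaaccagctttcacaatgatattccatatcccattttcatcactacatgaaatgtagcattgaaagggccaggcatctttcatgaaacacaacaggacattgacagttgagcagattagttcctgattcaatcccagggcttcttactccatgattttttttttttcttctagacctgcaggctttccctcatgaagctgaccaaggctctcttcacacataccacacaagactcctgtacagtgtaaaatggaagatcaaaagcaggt
Nr2e1: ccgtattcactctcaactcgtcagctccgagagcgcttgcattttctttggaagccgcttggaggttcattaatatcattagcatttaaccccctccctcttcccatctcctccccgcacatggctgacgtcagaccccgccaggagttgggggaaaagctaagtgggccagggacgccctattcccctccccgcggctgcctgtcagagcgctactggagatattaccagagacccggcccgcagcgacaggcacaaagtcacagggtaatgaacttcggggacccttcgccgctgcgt
A match to this string was found in 2 of 32851 RefSeq promoters of this length (0.00609%). Outside the spacer the string has the letters of the Rarb repeat itself, so the match in Rarb was given by the choice of string. Other forms of the element were not searched, so the lack of a match in Zpld1 and Nr2e1 covers this string only. A match is one of letters and not a measured binding site. G and C made up 57.7% of the Rarb window, 40.3% of the Zpld1 window and 58.0% of the Nr2e1 window.

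Guidance and trophic ligands, listed together with the ephrin receptor genes Epha4, Epha7 and Ephb2, were divided between the organs. Of 24 compared members, 15 were higher in the cochlea and 9 in the vestibule, beside 6564 and 4837 of all 11412 compared genes. Past 4-fold were 4 towards the vestibule and 1 towards the cochlea, against 2.44% and 0.981% of all compared genes. The median log2 ratio was 0.27. Ntn1, which encodes netrin 1, a guidance cue that is also required for fusion of the canal walls, was 1421.5 and 16359. Sema3e, a semaphorin, was 317.4 and 4371.6, Cxcl14, a chemokine, was 127 and 1269, and Efna5, an ephrin, was 80.1 and 349.8. Gdnf, a neurotrophic factor, was higher in the cochlea with 177.3 and 42.8. Of the neurotrophins that inner ear neurons depend on, Ntf3 was 428.5 and 162.9 and Bdnf was 213.3 and 340.4, both under 4-fold and in opposite directions.

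Endolymph transport genes were mixed, with 1 of 22 compared members past 4-fold, towards the vestibule, against 2.44% of all compared genes. Aqp1, a water channel, was 254.9 and 1412.9. Bsnd, the barttin gene, was 176.5 and 567.6, on the vestibular side and under 4-fold. Slc12a2, the sodium, potassium and chloride cotransporter of endolymph-secreting cells, was 64473.6 and 17871.4, 3.61-fold higher in the cochlea. Atp6v1b1, a proton pump subunit, was 1456 and 414.1. The potassium channel genes Kcnq1 and Kcne1 were within 2-fold, at 945.8 and 1359.9, and 1110.8 and 2177.3.

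Some genes past 4-fold lay beside each other. Within 100 kb there were 36 pairs among the 389 genes with coordinates, of which 35 went the same way, 25 towards the vestibule and 10 towards the cochlea. The same count over all compared genes was not made, and most genes past 4-fold were on the vestibular side. These numbers are therefore a description. Dlx1 and Dlx2 lie 9427 bases apart on chromosome 2, Dlx5 and Dlx6 lie 9237 bases apart on chromosome 6, and Hmx2 and Hmx3 lie 3848 bases apart on chromosome 7. On the cochlear side, Scara3 and Clu lie 14548 bases apart on chromosome 14, the guanylate cyclase subunit genes Gucy1a3 and Gucy1b3 17738 bases apart on chromosome 3, and Pla2r1 and Itgb6 44984 bases apart on chromosome 2. In 7 pairs the genes overlap, among them Gata3 with 4930412O13Rik and 9230102O04Rik, and Epyc with Gm10754. No source used here says whether the counting used the strand, so the reads of overlapping genes cannot be told apart.

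The other cell types show how large the same ratio is between organs elsewhere. In mesenchyme, 115 genes were past 4-fold towards the cochlea (1.01%) and 123 towards the vestibule (1.08%). In neurons it was 245 (2.11%) and 408 (3.51%), and in vascular endothelium 567 (4.81%) and 750 (6.37%). The epithelial pair therefore had a share of cochlear genes like that of mesenchyme and a larger share of vestibular genes, and both shares were below those of neurons and vascular endothelium. With both values at least 100, the SD of the log2 ratio was 0.59 for epithelium, 0.57 for mesenchyme, 0.82 for neurons and 1.07 for vascular endothelium.

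**Figure D4:**
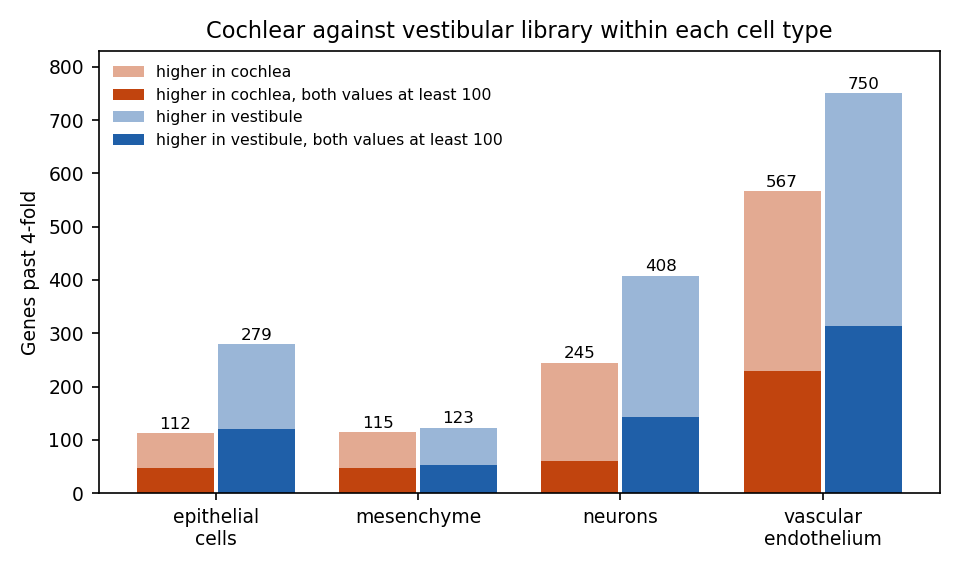
Number of genes past 4-fold (y axis, from 0) between the cochlear and vestibular library of each cell type; full bars with the number on top count genes with a higher value of at least 100, and the darker lower part those with both values at least 100. Epithelial cells have 112 and 279, mesenchyme 115 and 123, and the 2 other types more in both directions.

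The epithelial genes past 4-fold were followed into the other cell types. Of the 279 vestibular genes, 155 could be compared in mesenchyme and 19 of those (12.3%) were past 4-fold in the same direction, against 1.08% of all genes there. In neurons it was 37 of 158 (23.4%) against 3.51%, and in vascular endothelium 50 of 150 (33.3%) against 6.37%. The 112 cochlear genes differed from this. In mesenchyme 5 of 57 (8.77%) went the same way, against 1.01% of all genes there. In neurons 13 of 53 (24.5%) and in vascular endothelium 19 of 53 (35.8%) were past 4-fold towards the vestibule, against 3.51% and 6.37%. Epithelial markers were themselves higher in the vestibular libraries of these types, with Epcam at 44.8 in cochlear and 864.9 in vestibular neurons, and at 62.9 and 987.1 in vascular endothelium. Oc90 was 201.1 and 6548.3 in neurons and 461.9 and 6170.4 in vascular endothelium, and Epyc, a cochlear gene in epithelium, was 197.4 and 1716.1, and 138 and 1784.9. The part of this epithelial RNA in the ratios of the other cell types was not tested. In mesenchyme, where Epcam was 43.6 and 153, Clu (3894.5 and 1626.5), Scara3 (11074.8 and 3195.4) and Pappa2 (502 and 128.4) were higher in the cochlea under 4-fold, and Sfrp5 (20 and 82) was below 100. Tbx1, past 4-fold towards the vestibule in epithelium, was past 4-fold towards the cochlea in mesenchyme, with 738.5 and 101.6, and in vascular endothelium, with 1152.5 and 258.3.

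Of the 112 cochlear genes, 79 (70.5%) had their highest value of the 8 libraries in cochlear epithelium, against 1446 of the 6564 compared genes that were higher there by any amount (22.0%). Of the 279 vestibular genes, 166 (59.5%) had it in vestibular epithelium, against 1391 of 4837 (28.8%). Genes past 4-fold were chosen for a high value in that same library, which favours a peak there, so these shares are a description. In 15 and 23 of them the other 6 libraries were all at the lowest value. Over all 15275 genes, compared or not, this held for 552.

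Markers of other cell types moved with some of these results. Beside the counts past 4-fold in these lists stand 2.44% of all compared genes towards the vestibule and 0.981% towards the cochlea. Of 16 measured endothelial genes, 6 could be compared and 3 were past 4-fold towards the vestibule, and the summed signal of the list was 1069.9 in cochlear and 6784.7 in vestibular epithelium. Kdr, the VEGF receptor 2 gene, was 396.5 and 5635 and accounted for most of the vestibular sum but not of the cochlear sum. Of the 6 compared genes 5 were higher in the vestibule and 1 in the cochlea, Flt1 with 190.6 and 88.1. Cdh5, the defining gene of endothelial junctions, was at the lowest value and at 131.8, and Pecam1 was at the lowest value and at 80.4, whereas in the vascular endothelial libraries Cdh5 was 67384.5 and 28959.6 and Kdr was 52166.4 and 27502.9. Of 18 mesenchymal genes, 13 were compared and 2 were past 4-fold towards the vestibule, Col1a1 with 135.1 and 1131.6 and Coch with 337.4 and 2002, while Dcn (4502.4 and 1305.5) and Lum (26234.4 and 7223.3) were higher in the cochlea under 4-fold. The summed signal of that list was 55278.1 and 37665, and Otor, the fibrocyte gene, was 1992 and 2508.3. Of 12 melanocyte genes 8 were compared, of which Dct, Pmel and Tyrp1 were past 4-fold towards the vestibule and Oca2 towards the cochlea, with summed signals of 8434.4 and 11444.2. Sox10, at 7035.9 and 7999, made up most of both sums, and the other 11 genes summed to 1398.5 and 3445.2, with 7 higher in the vestibule and 2 in the cochlea. Tyr was at the lowest value in the cochlea and at 73.1 in the vestibule, and Mlana was at the lowest value in both. Both sums without their largest gene, here and for the pericyte list, were taken after the values were seen. Rgs5, a pericyte gene, was 91 and 709, and 1 of 4 compared pericyte and smooth muscle genes was past 4-fold, with summed signals of 3748.1 and 4011.3 over 9 measured genes. Notch3, at 3321.5 and 2627.4, made up most of both sums, and the other 8 genes were each higher in the vestibule and summed to 426.6 and 1383.9. Among these, Kcnj8 and Cspg4 were at the lowest value in the cochlea and at 70.8 and 55.6 in the vestibule, and Myh11 was 20 and 20.1.

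Among 17 neuronal genes 8 were compared, of which Stmn2 and Syt1, a synaptic vesicle gene at 1940.4 and 421.6, were past 4-fold towards the cochlea and Ntrk3 towards the vestibule, with summed signals of 8239.5 and 5694.2. Prph and Elavl3 were at the lowest value in both. In the cartilage and bone list 1 of 3 compared genes, Matn4, a matrilin gene with 1355.6 and 12399.6, was past 4-fold, with summed signals of 45716.6 and 43550.5 and Acan and Runx2 at the lowest value in both. No compared gene was past 4-fold in the lists of glia and Schwann cells (11 compared, summed signals 20659.8 and 22338.6), macrophages and leukocytes (3, 850.3 and 898.1), erythroid cells (2, 320.3 and 390.5) or stratified and middle ear epithelium (3, 1146.2 and 1867.2). Of 6 measured skeletal muscle genes 0 reached 100. The part of these other cells in the ratios was not tested.

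Of 23 compared genes of epithelial identity, 15 were within 2-fold and Prom2, with 226.1 and 1160.3, was past 4-fold towards the vestibule, with a median log2 ratio of -0.33. Of 12 compared cell division genes 0 were past 4-fold, with a median of -0.30, and Mki67 was 107.1 and 272.8. Genes of the response to dissociation were higher in the vestibular library in 16 of 16, against 4837 of all 11412 compared genes. The median of these 16 was -0.75, Fos was 29938 and 55018, and Hspb1, at 47.4 and 191, was past 4-fold. The 4 measured genes of the Y chromosome were within 2-fold.

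A test was possible of whether the organ difference in epithelium departs from that of the other 3 cell types, with limma on log2(value + 1), 8 libraries and 2 residual degrees of freedom. At an adjusted p of 0.05, 63 of 15275 genes (0.412%) were shifted towards the cochlea and 101 (0.661%) towards the vestibule, and 820 genes had an unadjusted p under 0.05. In 138 of these 164 genes the other 6 libraries were all at the lowest value, and in none did any of them exceed 87.8, so the p rests on equal values at the floor and not on the variation of epithelial libraries. It called 55 of the 391 genes past 4-fold. Hmx3 (adjusted p = 0.0252 by limma) and Nr2e1 (0.0303) were called, while Zpld1, Nox3, Wnt3 and Clu were not (adjusted p = 0.911 for each). With genes under 100 in every library left out, 0 genes of 13355 were called by limma and 449 had an unadjusted p under 0.05.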

How the data were processed

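mRNA-seq of 8 sorted populations was analysed, 1 library per group. The authors aligned reads to GRCm38 (TopHat 1.0.0 in the submitters' processing notes) and deposited a signal per gene for 15275 genes. Tested on the table, the sorted values are identical in all libraries, with a lowest value of 20, a median of 374.4 and a highest of 203006, so the deposited signal was quantile normalized. No source used here says how reads were counted or whether values were divided by gene length. The scaling removed the library totals, so depth is unknown and no counting interval can be given. A mean over all libraries and a cluster number in the table were not used, and 0 columns lacked a sample.

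Ratios were taken of the values as deposited, without a pseudocount, for genes with a higher value of at least 100, and called past 4-fold. The design had no test for this pair. limma 3.58.1 in R 4.3.3 fitted cell type, the organ difference of the other 3 types and its difference in epithelium, with a mean-variance trend and two-sided Benjamini-Hochberg adjustment. Tested on simulated data with the residual spread of these libraries, it recovered the size of changes on average but called none of the changed genes, so genes that were not called are not shown to be alike. The ratios used Python 3.11.15, pandas 2.3.3 and numpy 2.4.6.

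The members and the 30 gene lists were chosen with earlier results of these data known. Of 619 listed symbols 562 were matched, older symbols by Ensembl identifier. The symbols of 20 genes, deposited as date numbers, were recovered from their identifiers. Coordinates are from GENCODE vM21 and were found for 15030 genes. Named genes are the 15 with the largest ratio in each direction with a higher value of at least 1000, the first 10 with both values at least 100, list members past 4-fold (or up to 4 with the largest ratios), the 10 largest limma shifts in each direction, Epcam, Oc90, Tecta, Itga6 and Cd34. A few genes that this rule picks are not reported here. Other genes were named from the lists after their values were seen. Alternatives were other filters, pseudocounts, folds and a median centring, and for limma other pseudocounts, a filter, no trend, robust variances, cell types left out and an additive model.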

Additional observations from a re-analysis of the deposited data

Results flagged for a closer look

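Among 32 leading genes of the epithelial pair, 5 went past 4-fold in the opposite direction in another cell type. A share over all compared genes is not given for this count. The difference between cell types was not tested, since each ratio rests on 2 libraries. In vascular endothelium the log2 ratio of cochlea over vestibule was -2.89 for Pcolce2, -3.29 for Calb1, -2.95 for Scara3, -2.50 for Pappa2 and -2.69 for Clu, and in neurons it was -2.37 for Clu, against 2.51 to 2.70 in epithelium. Clu was at 147260 in cochlear epithelium and at 2212.6 in vestibular neurons. Epcam, too, had its larger value on the vestibular side in neurons and in vascular endothelium. Epithelium was not the highest source for every one of the 5 genes. Scara3 was 9677 in cochlear epithelium and, as given above, higher in cochlear mesenchyme. The part of epithelial or mesenchymal RNA in these ratios was not tested.

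The limma fit of the organ difference in epithelium against that in the other cell types gave the following largest shifts in log2 among its called genes. Towards the vestibule they were -4.71 for Taar5, -4.59 for Dnahc5, -4.48 for Scel, -4.14 for Tmprss9, -3.55 for Hmx3, -3.55 for Mstn, -3.50 for Ppp1r32, -3.40 for Tmem215, -3.23 for Dlx6 and -3.19 for Skor2. Towards the cochlea they were 3.42 for Abcg5, 3.33 for Tmem132d, 3.26 for Tex21, 3.17 for 4930412O13Rik, 3.14 for Rasgrf1, 3.13 for Nr2e1, 3.12 for Fcrlb, 2.91 for Ninj2, 2.87 for Gm10754 and 2.69 for Lmod3. These calls rest on the floor of the other libraries, as given with the test.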

How the results depend on the processing

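The direction of the excess towards the vestibule in epithelium was kept under every filter, pseudocount, fold and centring tried, while the counts moved. In the order cochlea and vestibule, a higher value of at least 1000 gave 35 and 91 genes past the fold in epithelium, 28 and 46 in mesenchyme, 33 and 92 in neurons and 158 and 229 in vascular endothelium. Both values at least 100 gave 48 and 120, 48 and 53, 60 and 143, and 229 and 313 in that order of cell types. A pseudocount of 100 gave 33 and 103, 28 and 43, 35 and 105, and 122 and 222, and a pseudocount of 20 moved the cochlear counts to 69, 76, 116 and 367. A 2-fold limit gave 483 and 785, 551 and 629, 1514 and 1530, and 2576 and 2483, the last of which turned the order of the organs in vascular endothelium. An 8-fold limit gave 14 and 90, 19 and 36, 44 and 118, and 89 and 187. No filter, a pseudocount of 1 and centring left each count within 1.5 times.

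Of the medians of 29 gene lists, the 29 with a pseudocount of 20 and the 29 with centring moved by less than 1.5-fold. Without a filter, dorsal otocyst transcription factors moved to -2.45, iroquois and homeobox clusters to 0 and vascular endothelium to -0.60. With both values at least 100, dorsal otocyst transcription factors moved to -1.87, stratified and middle ear epithelium to -0.59 and the neuronal list to 0.90, from fewer genes. Of 32 leading genes 14 had a ratio more than 1.5-fold smaller with a pseudocount of 100, and 0 reversed under 4 settings.

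For the limma fit, a pseudocount of 20 gave 55 and 93 calls and one of 100 gave 42 and 91. It gave 0 and 0 with a highest value of at least 100, without the trend, with robust variances, without the 2 libraries of mesenchyme, of neurons or of vascular endothelium, and for the organ term of the additive model, with 449 to 1735 genes at an unadjusted p under 0.05. The organ term of the additive model is the organ difference common to the 4 cell types. No fit with a replicate block could be made, since each group holds 1 library. Depth is unknown, so precision at low values cannot be given.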
